A study of Homo sapiens with 30 samples.

Results

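PCIF1 and the enzymes that form or methylate the mRNA cap make up a set of 7 genes, chosen by symbol from the 16009 genes of the deposited table of transcription start regions, in which all 7 have a row. They are PCIF1, RNMT, RAMAC, CMTR1, CMTR2, RNGTT and TGS1. The study profiled MEL624, a human melanoma cell line, by m6Am-Exo-Seq, in which an exonuclease removes uncapped fragments and an antibody against N6-methyladenosine pulls down methylated 5' ends. Of 30 samples, 12 second-stage libraries were used, in 4 groups of 3: control input, control immunoprecipitation (IP), PCIF1 knockout (KO) input and KO IP. Control cells were wild type with a random sgRNA, KO cells carried the PCIF1 knockout, and all 6 IPs used antibody 4, a mouse monoclonal (clone 212B11). The other 18 libraries, a first stage that compared antibodies with 1 library each, were not analysed here. The submitters call the 3 per group biological replicates, whether the KO replicates share a clone is not given in the sources used here, and KO and clone cannot then be told apart.

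The mRNA cap is built while the transcript leaves RNA polymerase II. RNGTT removes the terminal phosphate and adds the guanosine, RNMT with its activating subunit RAMAC methylates that guanosine at N7, and CMTR1 and CMTR2 methylate the ribose of the first and the next transcribed nucleotide. When the first nucleotide is adenosine, PCIF1 adds a methyl group at N6 and gives m6Am, which the antibody used here also binds. TGS1 adds further methyl groups to the cap of small nuclear and nucleolar RNAs.

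Since PCIF1 acts on a first adenosine, the start of each gene is shown with the first transcribed base in capitals. These are the 30 bases before and the 10 bases from the RefSeq start on (GRCh38.p14), given 5' to 3' on the gene's strand, for the 5 members matched by symbol. RNMT and TGS1 were not matched. PCIF1, CMTR1 and RNGTT have G at the start, and RAMAC has A.
PCIF1 (chr20:45934653-45934692, plus strand): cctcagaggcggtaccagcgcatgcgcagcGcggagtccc
RNGTT (chr6:88963609-88963648, minus strand): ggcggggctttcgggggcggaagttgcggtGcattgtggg
RAMAC (chr15:82986180-82986219, plus strand): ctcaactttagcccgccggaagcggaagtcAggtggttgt
CMTR1 (chr6:37433191-37433230, plus strand): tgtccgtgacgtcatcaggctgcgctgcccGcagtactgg
CMTR2 (chr16:71289713-71289752, minus strand): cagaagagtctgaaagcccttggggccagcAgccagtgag
CMTR2 depends on the annotation: RefSeq places its start 320 bases upstream of the start of the canonical GENCODE 44 transcript, with A in RefSeq and G in GENCODE. For the other 4 both annotations give the same position. By the canonical transcript, RNMT and TGS1 start with A. Which start the cells used is not in the table.

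Depth and scaling bear on all that follows. The table held 2836120 to 4094070 reads per input, 4035815 to 4625190 per control IP and 1753164 to 2177874 per KO IP, so that the KO IPs were the shallowest. Levels are given in CPM as scaled by the authors, back-transformed from the deposited log2 values, and are not per length. The library size behind this scaling, recovered from the deposited values, is not the reads of the table. For control IP 1 it was 4.29388e+06, below its 4625190 reads. Summed over all genes, CPM came to 922422 to 962250 in inputs. The sums were 1.06017e+06 to 1.07837e+06 in control IPs and 1.00472e+06 to 1.06417e+06 in KO IPs. Differences are on the log2 scale with the standard error (SE) of a limma fit over all 12 libraries and genes, with Benjamini-Hochberg adjusted p, called when under 0.05. Enrichment is the log2 difference IP minus input, and the difference of enrichment is control minus KO. Centring each library on the median of 79 ribosomal protein mRNAs, which is another choice of reference, moved the median of all genes by over 0.1 in most comparisons. That median went from -0.01 to 1.29 in control enrichment, from -0.07 to 0.24 in KO enrichment and from 0.06 to 1.06 in the difference of enrichment. It went from -0.02 to -0.09 for KO against control inputs and from -0.04 to -1.12 for KO against control IPs. Each direction below holds for the scaling as deposited, and "the ribosomal protein centring" means this median unless the mean of the same mRNAs is named. Of 7 melanocyte lineage markers MITF alone had a row, with 8.25 to 14.0 CPM in control inputs, 9.17 to 10.7 CPM in KO inputs, 11.5 to 12.9 CPM in control IPs and 2.998 to 5.80 CPM in KO IPs. The other 6, and all 9 markers of leukocytes, endothelium, fibroblasts and keratinocytes, had no row matched by symbol. The labelled cell type could thus be looked at on 1 gene only, and 6 of the 7 lineage markers gave no value.

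PCIF1 (ENSG00000100982, chr20:45934683-45948023) was present in every library, KO libraries included. The control inputs gave 57.8, 52.5 and 49.4 CPM and the KO inputs 70.4, 78.0 and 77.1 CPM, so that all KO inputs lay above all control inputs. In the IPs, control cells gave 30.1, 23.7 and 26.0 CPM and KO cells 35.4, 41.0 and 28.7 CPM, and these groups overlapped. Behind these values stood 169 to 229 reads in control inputs and 50 to 84 reads in KO IPs. The start fragments of PCIF1 were higher in KO than in control inputs by 0.50 ± 0.14 (adjusted p = 0.0229). That call was lost without control input 2, control input 3, KO input 2 or KO input 3 (adjusted p = 0.0777, 0.101, 0.0782 and 0.0681), without the mean-variance trend of the fit (adjusted p = 0.0741) and with the ribosomal protein centring (0.42, adjusted p = 0.252). Where the sgRNA cuts is not known from the labels, and reads at the start cannot serve as a check of the knockout.

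The 5' end of PCIF1 itself was lower in IPs than in inputs on the deposited scaling. Its enrichment was -1.01 ± 0.14 in control cells (adjusted p = 3.37e-06; 0.30 when centred on the ribosomal protein median, adjusted p = 0.173) and -1.12 ± 0.14 in KO cells (adjusted p = 8.20e-07). In both genotypes every IP lay below every input. Between genotypes the enrichment differed by 0.11 ± 0.20, which did not pass (adjusted p = 0.717), with a 95% confidence interval of -0.30 to 0.52. With the ribosomal protein centring this value became 1.11 (adjusted p = 0.00157), and 0.67 with the mean (adjusted p = 0.0218), both called. Among the 5061 protein-coding genes whose canonical transcript starts with G, as that of PCIF1 does, the median difference was 0.06, and 53.0% of them lay below PCIF1. PCIF1 was also higher in KO than in control IPs by 0.39 ± 0.14 (adjusted p = 0.0253). This was lost without control IP 2, control IP 3, KO IP 1 or KO IP 2 (adjusted p = 0.114, 0.0645, 0.0543 and 0.135), without the trend (adjusted p = 0.0557) and in a fit of the IPs alone (adjusted p = 0.0798). It turned to -0.69 when centred on the ribosomal protein median (adjusted p = 0.00309).

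**Figure D1:**
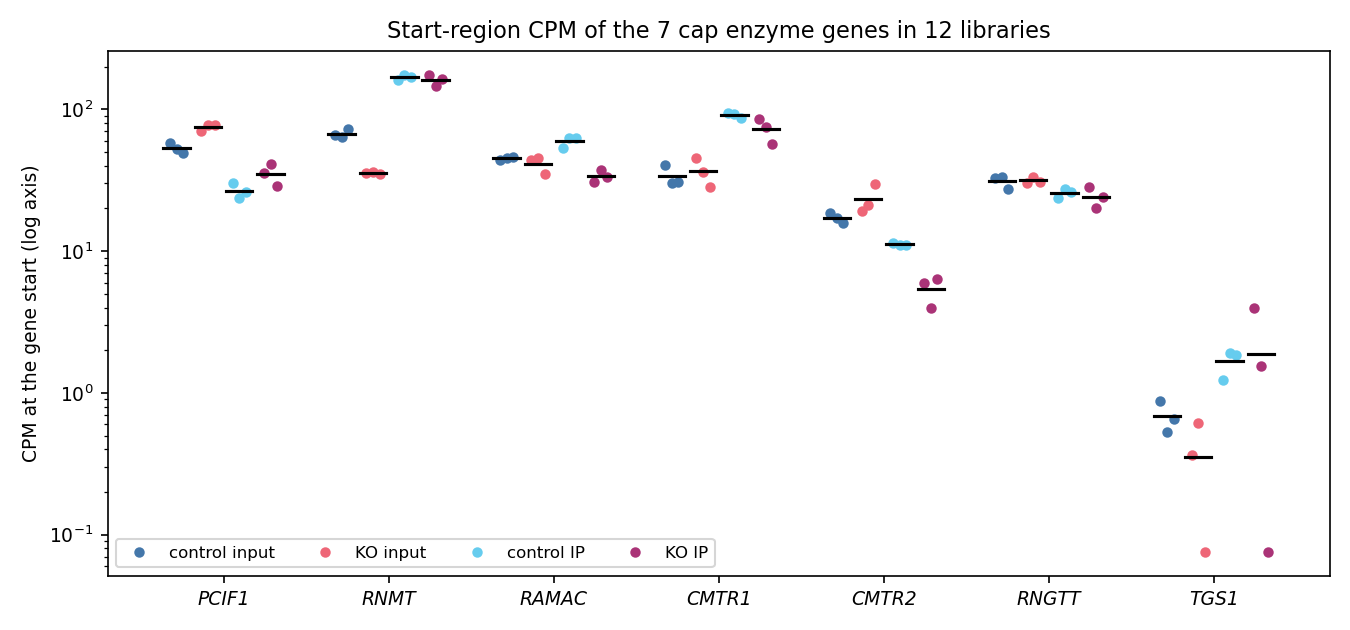
CPM at the start of each of the 7 genes (log axis) in the 12 libraries, with 1 point per library, colours for the 4 groups and a bar at the mean of each group's 3 libraries. RNMT stands highest in both IP groups, PCIF1 is lower in IPs than in inputs of either genotype on this scaling (0.30 higher in control IPs with the ribosomal protein centring), and the TGS1 points at the bottom are libraries with 0 reads.

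In the control inputs the order of levels was RNMT, PCIF1, RAMAC, CMTR1, RNGTT, CMTR2 and TGS1. RNMT gave 67.5 ± 4.29 CPM and TGS1 0.692 ± 0.176 CPM (SD, n = 3). Only CMTR1 and RNGTT, neighbours in this order, overlapped between libraries, at 33.9 ± 5.85 and 31.0 ± 3.32 CPM. In the KO inputs PCIF1 came first with 75.1 ± 4.16 CPM, followed by RAMAC, CMTR1 and RNMT at 41.5 ± 5.50, 36.7 ± 8.54 and 35.7 ± 0.594 CPM, whose ranges overlapped from each to the next. RNMT led in control IPs (169 ± 6.75 CPM) and in KO IPs (162 ± 14.2 CPM). CMTR1 followed it in both, with 91.2 ± 3.73 and 72.4 ± 14.5 CPM.

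RNGTT (ENSG00000111880, chr6:88609897-88963618), which makes the guanosine cap, was called neither between the inputs, nor between the IPs, nor in the difference of enrichment on the deposited scaling, but was called in the last 2 with the ribosomal protein centring. It gave 32.6, 33.3 and 27.2 CPM in control inputs, 30.2, 33.4 and 30.9 CPM in KO inputs, 23.8, 27.6 and 26.0 CPM in control IPs and 28.5, 20.0 and 24.1 CPM in KO IPs. Inputs of both genotypes overlapped, as did their IPs. KO minus control input was 0.03 ± 0.15 (adjusted p = 0.946), with an interval of -0.29 to 0.34, and turned to -0.052 with the ribosomal protein centring (adjusted p = 0.933). KO minus control IP was -0.10 ± 0.15 (adjusted p = 0.594), or -1.18 with that centring (adjusted p = 5.70e-06) and -0.62 with the mean (adjusted p = 0.00284). Its enrichment was -0.26 ± 0.15 in control cells, which did not pass (adjusted p = 0.146), and -0.39 ± 0.15 in KO cells (adjusted p = 0.0304). The KO value was lost without KO IP 2 or KO input 2 (adjusted p = 0.152 and 0.0945) and when libraries were centred on their median (-0.32, adjusted p = 0.0775), as well as in a fit of the KO libraries alone (adjusted p = 0.0685). It came to -0.09 with the ribosomal protein centring (adjusted p = 0.723) and turned to 0.21 with the mean (adjusted p = 0.280). In control cells the sign turned with the ribosomal protein centring (1.05, adjusted p = 2.72e-05). The difference of enrichment was 0.13 ± 0.21, with an interval of -0.31 to 0.57 (adjusted p = 0.691), or 1.13 with the ribosomal protein centring (adjusted p = 0.00103) and 0.69 with the mean (adjusted p = 0.0204).

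RNMT (ENSG00000101654, chr18:13726660-13764556), the cap N7-methyltransferase, had the highest IP level of the 7 in both genotypes. Control inputs gave 66.4, 63.8 and 72.2 CPM and control IPs 162, 176 and 170 CPM, so that every IP lay above every input. The enrichment in control cells was 1.33 ± 0.10 (adjusted p = 5.54e-10). In KO cells the inputs gave 35.7, 36.3 and 35.2 CPM and the IPs 175, 147 and 165 CPM. The enrichment of RNMT in KO cells was 2.18 ± 0.10 (adjusted p = 5.77e-13). The IPs of both genotypes overlapped, with a KO minus control difference of -0.06 ± 0.10 that did not pass (adjusted p = 0.616, interval -0.27 to 0.14). With the ribosomal protein centring this difference became -1.14 (adjusted p = 2.86e-07).

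In the inputs, RNMT was lower in KO than in control cells by 0.92 on the log2 scale (-0.92 ± 0.10, adjusted p = 2.86e-06), and the 6 libraries of both groups did not overlap. The call held without each library in turn and under each centring. Its enrichment was higher in KO cells, with a control minus KO difference of -0.85 ± 0.14 (adjusted p = 0.000113), which turned to 0.15 when centred on the ribosomal protein median (adjusted p = 0.569) and was not called with the mean (-0.29, adjusted p = 0.156). Of the 5549 protein-coding genes whose canonical transcript starts with A, 7.84% had a lower difference of enrichment than RNMT, and their median was 0.37.

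The genes next to RNMT were lower in the KO inputs as well. Within 1 Mb on either side, 13 other genes had a row, of which 11 were called lower and 0 higher in KO inputs. Of all genes, 5.67% were called lower and 5.56% higher. The median of the 13 was -2.04, with a range from -7.86 to -0.39. The lowest values were those of POTEC (-7.86) and CXADRP3 (-7.845), with a mean log2 CPM over the 12 libraries of -0.60 and 0.51. Since 0 reads stand at a log2 CPM of -3.72, differences of this size need clear reads in control inputs. Their exact size depends on the count added before the log. Among the 4 neighbours with a mean log2 CPM of at least 3, a filter that leaves both out, the median was -1.04, close to the value of RNMT. These 4 are PTPN2 (-1.14), SEH1L (-1.11), CEP192 (-0.98) and FAM210A (-0.39). All these neighbours were named after their values were seen. In the IPs the 13 neighbours were lower too, with a median KO minus control difference of -1.41, while RNMT stood at -0.06. Of these neighbours 10 were called lower and 1 higher, against 26.0% and 23.0% of all genes. The part of the region in the RNMT values was not tested. The FAM210A start lies 115 bases from that of RNMT on the opposite strand, and the strand setting of the counting is not given in the sources used here, so that reads of both genes are uncertain. FAM210A fell in the KO IPs (-1.02 ± 0.09, adjusted p = 1.91e-08), beside -0.06 ± 0.10 for RNMT. Whether both differ was not tested.

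**Figure D2:**
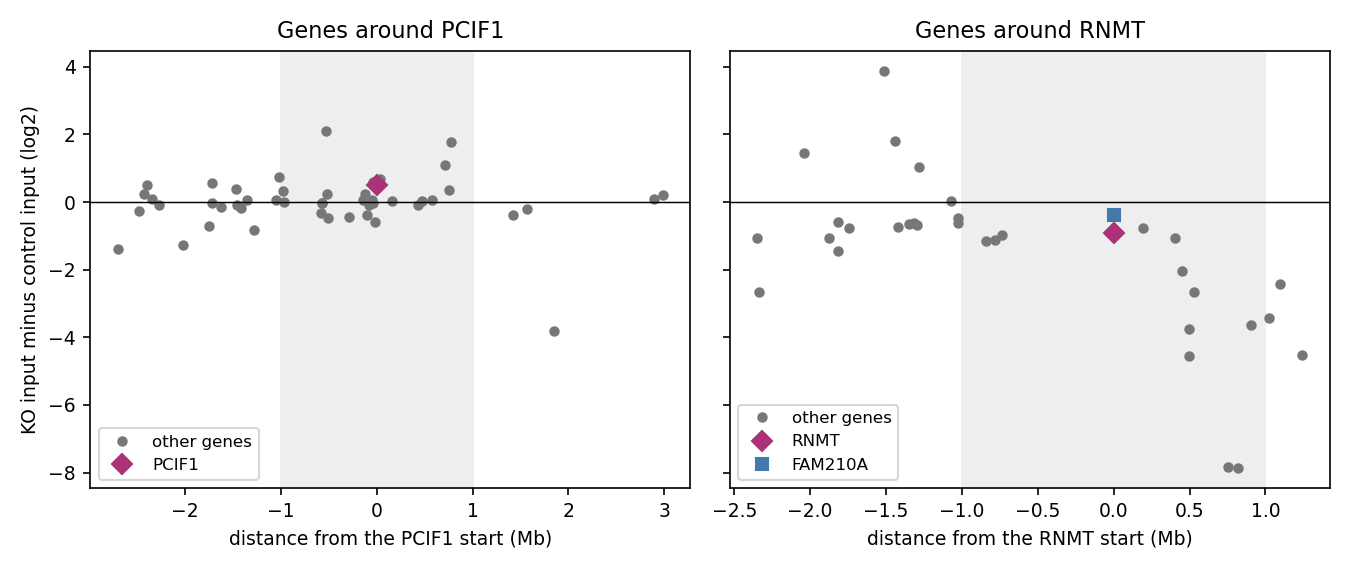
KO input minus control input on the log2 scale for each gene of the table within 3 Mb of PCIF1 (left) and RNMT (right), against the distance of its start from theirs in Mb, with the 1 Mb window shaded and 1 point per gene. PCIF1, at 0.50, stands above most of its neighbours, whose median is 0.02 within 1 Mb. RNMT stands at -0.92, and all its neighbours within 1 Mb lie below 0. Of the 33 within 3 Mb, 19 were called lower and 1 higher in the KO inputs.

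No such lowering was seen around PCIF1. There the 26 other genes within 1 Mb had a median input change of 0.02, and 21 of the 26 lay below the 0.50 of PCIF1. Among these 26, 2 were called higher and 1 lower, against 5.56% and 5.67% of all genes. Medians around the other 5 members lay between -0.11 (TGS1, 6 genes) and 0.20 (RAMAC, 21 genes).

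RAMAC (ENSG00000169612, chr15:82986210-82991057), the small activating subunit of RNMT, was lower in KO than in control IPs. Control inputs gave 43.6, 45.4 and 46.2 CPM, KO inputs 43.98, 45.3 and 35.2 CPM, control IPs 53.2, 63.0 and 62.8 CPM and KO IPs 30.5, 37.6 and 33.3 CPM. All control IPs lay above all KO IPs, while the inputs overlapped. KO minus control was -0.82 ± 0.13 in the IPs (adjusted p = 3.14e-05) and -0.13 ± 0.13 in the inputs, which did not pass (adjusted p = 0.617). The difference of enrichment was 0.69 ± 0.18 (adjusted p = 0.00753), and it was called without each library in turn and under each centring. RAMAC was thus more enriched in control than in KO cells. Against input it was enriched in control cells by 0.40 ± 0.13 (adjusted p = 0.0127, lost without control IP 2 at 0.0545 and without control IP 3 at 0.0523). In KO cells the value was -0.29 ± 0.13 (adjusted p = 0.0590), which turned to 0.01 with the ribosomal protein centring and passed without KO input 3 (-0.41, adjusted p = 0.0132) or KO IP 2 (-0.37, adjusted p = 0.0307). Its start base is A in both annotations, and 69.4% of coding genes with a first A had a lower difference of enrichment.

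CMTR1 (ENSG00000137200, chr6:37433219-37482827), which methylates the ribose of the first nucleotide, was enriched by the antibody in both genotypes. Control inputs gave 40.7, 30.3 and 30.7 CPM and control IPs 93.7, 93.0 and 86.9 CPM. KO inputs gave 45.4, 36.3 and 28.3 CPM and KO IPs 85.4, 75.1 and 56.7 CPM. In each genotype all IPs lay above all inputs. The enrichment was 1.44 ± 0.17 in control cells (adjusted p = 4.05e-07) and 0.99 ± 0.17 in KO cells (adjusted p = 4.40e-05). Between genotypes it differed by 0.45 ± 0.24, short of the threshold (adjusted p = 0.167, interval -0.04 to 0.95), and passed without KO input 3 (0.63, adjusted p = 0.0440). With the ribosomal protein centring it came to 1.46 (adjusted p = 0.000106). All KO IPs lay below all control IPs, but KO minus control IP, at -0.35, did not pass (adjusted p = 0.0911). That IP difference was called without KO IP 1 (-0.48, adjusted p = 0.0339) and in a weighted fit of recovered reads (voom, -0.34, adjusted p = 0.0430). With the ribosomal protein centring it was -1.43 (adjusted p = 5.23e-07). Both annotations give G as the first base of CMTR1, and 94.3% of the coding genes with a first G lay below it in control enrichment.

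CMTR2 (ENSG00000180917, chr16:71281389-71289715), the methyltransferase of the next nucleotide, had the largest difference of enrichment of the 7. Control inputs gave 18.6, 17.3 and 15.8 CPM, KO inputs 19.3, 21.2 and 29.96 CPM, control IPs 11.5, 11.1 and 11.0 CPM and KO IPs 5.96, 3.97 and 6.37 CPM. The KO IPs lay below all other libraries, and the KO inputs above the control inputs. Its KO IP values rest on 12, 8 and 11 reads, against 42 to 49 reads in control IPs. The difference of enrichment was 1.49 ± 0.31 (adjusted p = 0.00122), called without each library in turn and under each centring. In the IPs, KO minus control was -1.07 ± 0.22 (adjusted p = 0.000518), while the input change of 0.42 ± 0.22 did not pass (adjusted p = 0.263).

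CMTR2 lay below input in both genotypes. Its enrichment was -0.62 ± 0.22 in control cells (adjusted p = 0.0224) and -2.11 ± 0.22 in KO cells (adjusted p = 8.35e-08). The control value was lost without control input 1, control input 2, control IP 2 or control IP 3 (adjusted p = 0.0768, 0.0563, 0.0533 and 0.0549) and with centring on the library median (-0.52, adjusted p = 0.0522). It turned to 0.69 when centred on the ribosomal protein median (adjusted p = 0.0190). With the RefSeq start, CMTR2 joins the genes with a first A, of which 94.7% had a lower difference of enrichment. With the canonical start it joins those with a first G, of which 97.0% did.

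**Figure D3:**
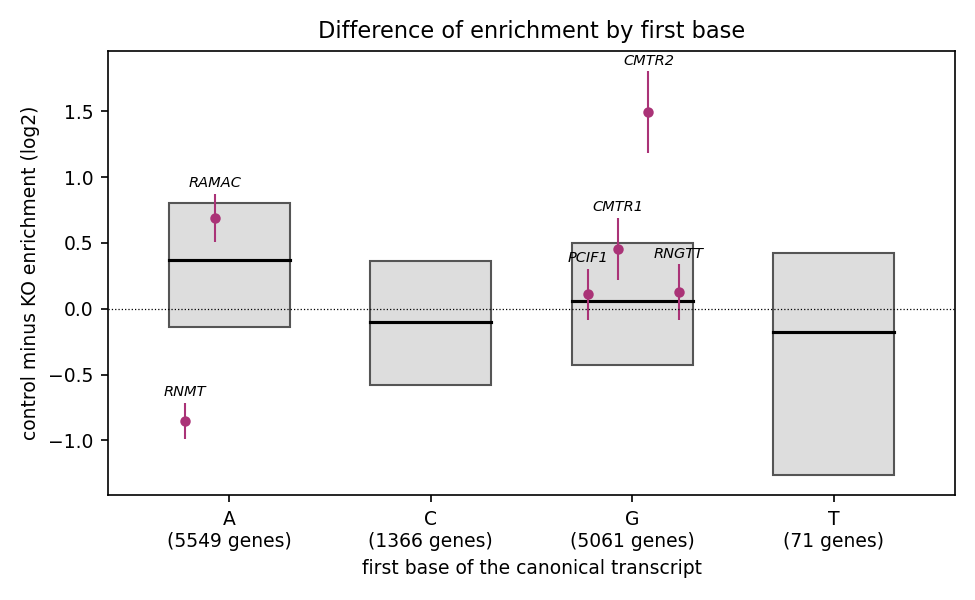
Difference of enrichment (control minus KO, log2) by the first base of the canonical transcript: boxes span the middle 50% of protein-coding genes with a line at the median, and points are 6 members with the SE of the fit, without TGS1. On the deposited scaling CMTR2 lies above the box of its class and RNMT below that of the genes with a first A (0.15 for RNMT with the ribosomal protein centring).

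TGS1 (ENSG00000137574), on chromosome 8, was close to the limit of detection. Its start held 3, 2 and 2 reads in control inputs, 1, 2 and 0 in KO inputs, 5, 7 and 7 in control IPs and 8, 3 and 0 in KO IPs. Since 3 reads amount to 0.687 to 1.72 CPM depending on the library, inputs of both genotypes were at or under that floor, and no fold is read from them. TGS1 was called in none of the 5 comparisons (adjusted p = 0.234 to 0.904 over the 12 libraries), and differences were not detectable at this depth. A fit of the control libraries alone gave adjusted p = 0.0226 for control enrichment, the ribosomal protein centring gave 0.0397 for the same comparison, and leaving out KO IP 3 gave 0.00301 for KO enrichment. The start of TMEM68 lies 68 bases away on the opposite strand, with 14.9 ± 0.972 CPM in control inputs (SD, n = 3), so that the few reads of TGS1 are uncertain.

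Counted over the 7 members, calls were spread over both directions. In control enrichment 3 members were higher (RNMT, CMTR1 and RAMAC) and 2 lower (PCIF1 and CMTR2), where 27.7% of all genes were higher and 28.2% lower. In KO enrichment 2 were higher (RNMT and CMTR1) and 3 lower (CMTR2, PCIF1 and RNGTT), against 28.4% and 31.0% of all genes. For the difference of enrichment, 2 members were more enriched in control cells (CMTR2 and RAMAC) and 1 in KO cells (RNMT), against 15.8% and 13.0% of all genes. In the inputs 1 rose in the KO (PCIF1) and 1 fell (RNMT), against 5.56% and 5.67%. In the IPs 1 was higher in the KO (PCIF1) and 2 lower (RAMAC and CMTR2), against 23.0% and 26.0%. The ribosomal protein centring changed these shares of all genes to 66.1% and 4.28% in control enrichment, 34.4% and 20.4% in KO enrichment, and 52.2% and 1.89% for the difference. For the inputs they became 2.14% and 4.12%, and for the IPs 3.32% and 65.9%. With it the members counted 6 higher and 0 lower in control enrichment, 2 and 2 in KO enrichment, and 5 and 0 for the difference. Between inputs 0 were higher and 1 lower, and between IPs 0 and 6. The comparisons share libraries and are not independent of each other.

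**Figure D4:**
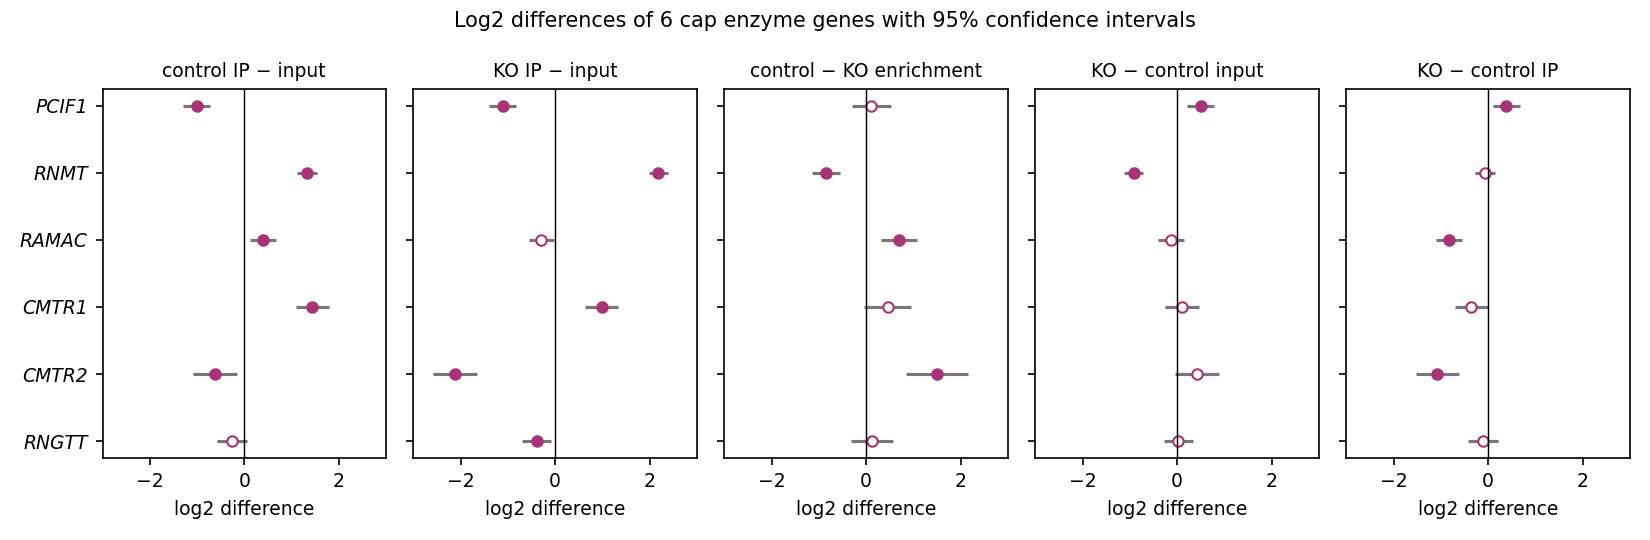
Log2 differences of 6 members, without TGS1, in the 5 comparisons, with 95% confidence intervals of the limma fit; filled points passed an adjusted p of 0.05 and open points did not. On the deposited scaling RNMT and CMTR1 lie right of 0 in both enrichment panels, and CMTR2 and RAMAC lie right of 0 and RNMT left of it in the difference of enrichment (0.15 for RNMT when centred on the ribosomal protein median).

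The antibody also binds internal N6-methyladenosine, whose usual sequence context holds GGAC. These letters were searched on the transcript strand in the first 200 bases of the canonical transcript. They occur 4 times in CMTR2, 2 times each in CMTR1 and RNGTT, 1 time each in PCIF1 and RAMAC, and 0 times in RNMT and TGS1. Of 200-base windows of coding genes, 65.3% hold at least 1 match. The median KO enrichment was -0.12 with a match and -0.23 without. Among the members, the KO enrichments with 4, 2, 2, 1 and 1 matches were -2.11, 0.99, -0.39, -1.12 and -0.29, and that of RNMT, with 0, was 2.18. Which mark the antibody bound was not tested.

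The genes whose log2 CPM followed each member most closely over the 12 libraries were taken from 9266 named genes with a mean log2 CPM of at least 3. For PCIF1 these were VAT1, RNPEPL1 and NADK (Pearson r 0.983, 0.980 and 0.979), and for RNMT LINC00667, FUNDC1 and RRBP1 (r 0.992, 0.992 and 0.99). RAMAC was followed by MINDY4, NF1 and IGFBP6 (r 0.959, 0.950 and 0.950), CMTR1 by GPSM3, PQBP1 and RAPH1 (r 0.986, 0.981 and 0.981) and CMTR2 by EMC6, GUF1 and SEPTIN8 (r 0.988, 0.984 and 0.983). RNGTT had lower values, with 0.915 for AKAP8L, 0.912 for TMLHE and 0.908 for RBAK. The r of TGS1, led by TRMT112 at 0.878, rests on too few reads to be read. All genes share the 12 libraries and their 4 groups, and these r are a description.

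Other genes that act on the cap had calls in both directions. Of 8 measured cap-binding genes, 1 had a higher enrichment in control cells and 1 a lower one, where 15.8% and 13.0% of all genes did. NCBP3, a cap-binding protein of the nucleus, had a difference of 0.90 ± 0.16 (adjusted p = 0.000271). EIF4E2, a cap-binding homologue of the translation factor eIF4E, had -1.18 ± 0.22 (adjusted p = 0.000447), or -0.18 with the ribosomal protein centring (adjusted p = 0.594). Of 11 measured genes for cap removal and 5' decay, against the same shares, 1 had a higher enrichment in control cells, the decapping enzyme gene NUDT16 (1.18 ± 0.20, adjusted p = 0.000205), and 1 a lower one. The latter was the 5' exonuclease gene XRN2 (-0.54 ± 0.18, adjusted p = 0.0275), whose call was lost in 7 of 12 fits that each left out 1 library (adjusted p = 0.00433 to 0.0736 over the 12) and turned to 0.46 with that centring. Group medians were 0.14 and 0.25, against 0.06 for all genes.

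FTO, a demethylase of m6Am, was less enriched in control than in KO cells by this test (-0.84 ± 0.30, adjusted p = 0.0423), but the call was lost in 8 of 12 fits that left out 1 library (adjusted p = 0.0245 to 0.0988) and turned to 0.16 with the ribosomal protein centring. METTL4, which makes internal m6Am in U2 small nuclear RNA, had 1.11 ± 0.24 (adjusted p = 0.00158). Of the 6 genes that couple capping to transcription, SUPT4H1, a subunit of the elongation factor DSIF, had 1.20 ± 0.21 (adjusted p = 0.000263). The polymerase II subunit gene POLR2A had -1.72 ± 0.25 (adjusted p = 4.79e-05), or -0.71 with that centring (adjusted p = 0.0603). The other 4 of these 6 were not called. Of all genes, 15.8% had a higher and 13.0% a lower enrichment in control cells by this test. The medians of these last lists were -0.51 over 3 genes and 0.16 over 6, against 0.06 for all genes.

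In the inputs, 1 of the 8 cap-binding genes rose and 1 fell, and 1 each of the 11 removal genes, the 3 other enzymes and the 6 coupling genes fell, where 5.56% of all genes rose and 5.67% fell. SRRT, a partner of the nuclear cap-binding complex, fell in the KO (-0.75 ± 0.15, adjusted p = 0.00209), as did MEPCE, which methylates the 5' end of 7SK RNA (-0.77 ± 0.15, adjusted p = 0.00161). Both calls held without each library in turn. NCBP3 rose (0.43 ± 0.11, adjusted p = 0.0172), the decapping activator gene DCP1A fell (-0.55 ± 0.16, adjusted p = 0.0295), and the kinase gene CDK7 fell (-0.41 ± 0.11, adjusted p = 0.0175). These 3 calls were lost in 4, 4 and 3 of the 12 fits that left out 1 library, with adjusted p up to 0.0878, 0.156 and 0.0883. Every such loss came on leaving out an input. Fits without an IP can change the SE and adjusted p, but not the difference between inputs itself. All 3 calls were also lost without the mean-variance trend of the fit. Those of NCBP3 and CDK7 were also lost with the ribosomal protein centring. With the mean, those of DCP1A (-0.51, adjusted p = 0.0525) and CDK7 (-0.36, adjusted p = 0.0576) were lost.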

How the data were processed

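The authors deposited log2 CPM per gene and library for the transcription start regions of MEL624 libraries. The submitters' processing notes name edgeR 3.12.1 in R 3.3.3, deepTools 3.0.2, SAMtools 1.7, featureCounts, HISAT2 2.0.4 and the build hg38, without their roles. Which window, annotation, strand setting and gene filter were applied is not given in the sources used here. An added count averaging 0.25 turned 100% of values into whole reads (within 0.01), which give the depth. PCR duplicates could not be told from separate molecules. Column numbers were not tied to replicate letters, so columns were assigned to groups only and the number is a name.

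In R 4.3.3, limma 3.58.1 fitted the 4 group means over all 16009 genes, using a mean-variance trend but not blocking on the number, and gave 5 comparisons. The procedure was tested on simulated data. Gene records, canonical starts and first bases come from GENCODE 44 on hg38 (15903 genes matched by identifier), and start sequences from RefSeq. Named genes are the 7 members, genes of 4 cap lists (up to 3 per list with the smallest adjusted p in the difference of enrichment and in the input change), and the 3 most correlated genes per member. PHAX, LARP1 and DCPS of these lists had no row matched by symbol. The members and lists were chosen with earlier results of these data known. The motif search, the IP values of neighbouring genes and the centring on the ribosomal protein mean were added after the data were seen. Alternatives varied the log scale, filter, trend, libraries in the fit, replicate block, centring, weights (voom) and each library.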

Additional observations from a re-analysis of the deposited data

Results flagged for a closer look

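For 3 of the 7 members the IP minus input difference was not the same in control and KO cells, by the test of that difference itself (limma interaction, Benjamini-Hochberg adjusted over all genes), on the deposited scaling. Of all genes 15.8% were called more and 13.0% less enriched in control cells by the same test. CMTR2 was more enriched in control than in KO cells, by 1.49 ± 0.31 on the log2 scale (adjusted p = 0.00122), with all 3 KO IPs below all 3 control IPs. RAMAC differed in the same direction, by 0.69 ± 0.18 (adjusted p = 0.00753), again with no overlap of the IPs. RNMT differed in the other direction, by -0.85 ± 0.14 (adjusted p = 0.000113), where its KO inputs lay below its control inputs and its IPs overlapped. This value turned to 0.15 when libraries were centred on the ribosomal protein median (adjusted p = 0.569) and was not called with their mean (-0.29, adjusted p = 0.156). The KO inputs of the genes within 1 Mb of RNMT were lower as well, and the part of that in its value was not tested.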

How the results depend on the processing

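The members' 35 log2 differences were recomputed under each alternative, giving 730 values, of which 656 kept direction and side of the threshold, 25 no longer passed, 23 newly passed and 26 changed sign. Among the 730 are fits without a library outside the comparison. Others dropped the trend, fitted only the groups compared, added the replicate block or filtered genes on mean log2 CPM. All of these can change the SE and adjusted p but not the difference, so their direction was fixed in advance. The scaling mattered most: centring on the ribosomal protein median changed sign for PCIF1 (0.30), CMTR2 (0.69) and RNGTT (1.05) in control enrichment, RAMAC in KO enrichment (0.013), RNMT (0.15), TGS1 (0.68), XRN2 (0.46) and FTO (0.16) in the difference of enrichment, RNGTT between inputs (-0.052) and PCIF1 between IPs (-0.69). Centring on their mean did so for PCIF1 (0.15), CMTR2 (0.54) and RNGTT (0.89) in control enrichment, RAMAC (0.31) and RNGTT (0.21) in KO enrichment, TGS1 (0.24) and XRN2 (0.018) in the difference, and PCIF1 between IPs (-0.12). The cause was not tested. Members called in the difference of enrichment went from 3 to 5 with either, and between IPs from 3 to 6 with the median and 5 with the mean. Between inputs they went from 2 to 1 with the median and without the mean-variance trend. Over all genes the median centring called 8361 higher and 303 lower in the difference, against 2522 and 2083, and 343 and 659 between inputs, against 890 and 908.

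Leaving out 1 library at a time gave 3 to 5 members called in control enrichment (3 without control IP 2 or 3) and 1 to 2 between inputs. Input calls over all genes were 600 higher and 577 lower without control input 3. Signs changed, none of them of called values, in the difference of enrichment for TGS1 (-2.00 to 0.87), RNGTT (-8.72e-07 to 0.25) and PCIF1 (-0.027 to 0.23), between inputs for RNGTT (-0.066 to 0.080) and CMTR1 (-0.066 to 0.27), and between IPs for RNMT (-0.12 to 0.0057), RNGTT (-0.23 to 0.026) and TGS1 (-2.26 to 0.60). The neighbours of RNMT had a median input change of -1.05 within 3 Mb and -1.04 at a mean log2 CPM of at least 3, those of RNGTT 0.19 without KO input 2, and genes with a first A by the gene record a median difference of 0.26.

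With the number in the column name as a replicate block, 5, 6, 4, 2 and 4 members were called in control enrichment, KO enrichment, the difference, inputs and IPs, RAMAC in KO enrichment and CMTR1 in the difference and the IPs being added (adjusted p = 0.0442, 0.0476 and 0.0195). The labels do not say that the numbers pair libraries; same-number deviations correlated at -0.08 to 0.24, and 12 of 12 libraries correlated best with their own number between input and IP, a hint from the data only. The KO IPs, with 8 to 12 reads of CMTR2 and 0 to 8 of TGS1, limit those 2 genes most. The TGS1 values above rest on inputs at or under 3 reads and are fitted values, not folds.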
